A study of Mus musculus with 8 samples.

Results

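The genes described here belong to the TGF-beta, BMP and activin pathway: its ligands, receptors, Smads, secreted antagonists, latent binding proteins and a few direct targets. They were found by a rule on gene symbols, and 66 of the 50600 genes in the deposited tables matched. The cells were C57BL/6 mouse embryonic fibroblasts transduced with retroviruses that encode GHMT, the cardiac reprogramming factors Gata4, Hand2, Mef2c and Tbx5. All groups carried GHMT, so a culture without the factors was not part of the design. The cultures were then kept for 7 days in 1% DMSO, in 5 µM I-CBP112, in 5 µM C646 or in 0.1% ethanol, with 2 RNA-seq libraries in each group and 8 in all. CBP and p300 are histone acetyltransferases: I-CBP112 occupies their bromodomains, and C646 inhibits their catalytic domain. The sources used here do not name the solvent of either inhibitor, so an effect of the solvent and one of the inhibitor cannot be told apart.

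TGF-beta family ligands are secreted dimers that bring together type I and type II serine/threonine kinase receptors at the cell surface. TGF-betas and activins act mainly through Smad2 and Smad3, BMPs through Smad1, Smad5 and Smad9, and both kinds of Smad join Smad4 and enter the nucleus, where CBP and p300 are known coactivators. Much of the control lies outside the cell: Gremlin, Chordin and Noggin bind BMPs, and follistatins bind activins. Some, but not all, of the latent TGF-beta binding proteins hold TGF-beta in the matrix. In mouse fibroblasts, inhibition of TGF-beta receptor kinase is known to raise the yield of reprogrammed cardiomyocyte-like cells.

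The files are the authors' 3 comparison tables, for DMSO, I-CBP112 and C646, and ethanol, for which no table was given, was read as the reference of all 3. Among 2312 genes with a mean normalised count below 0.16, 549 were seen in DMSO libraries only, 536 in I-CBP112 only, 622 in C646 only and 596 in the reference only, the pattern of 4 separate groups. The tables give no values of single libraries, so the group means below were rebuilt from the mean normalised count and the fold changes, and whether the libraries of 2 groups overlapped cannot be read from them. Summed over all genes, the rebuilt means came to 38573386 normalised counts in DMSO, 37516607 in I-CBP112, 37834625 in C646, against 38066585 in ethanol. The 10 fibroblast markers, all present, summed to 608297 in DMSO, 547284 in I-CBP112, 904414 in C646, against 914959 in ethanol. The 8 cardiomyocyte markers summed to 307033 in DMSO, 297468 in I-CBP112, 107310 in C646, against 104831 in ethanol. The pathway genes described below moved in cultures whose fibroblast and cardiomyocyte markers moved too, and the part of that shift in the results was not tested. In bulk RNA, fewer cells of a type and less RNA per cell cannot be told apart.

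Of the 66 pathway genes, 64 had counts and 55 had an adjusted p in the DMSO and I-CBP112 tables, which cover 14830 genes with a mean normalised count of at least 26.1. That filter uses the mean over all groups. The other 9 genes with counts, Bmp8a, Acvr1c, Nog, Bmp15, Bmp8b, Gdf1, Gdf5, Gdf2 and Gdf3, had means between 0.799 and 24.9, and Bmp10 and Inhbc were listed at 0. Gdf1 shares an exon stretch of 889 bases with Cers1 on the same strand, so its counts are uncertain. Bmp8a and Bmp8b are related genes, and how well reads can be told apart between them was not tested. Per kilobase of the deposited transcript length, the most abundant ligand was Tgfb3, with 3279 normalised counts per kb, against 479 for Tgfb2 and 88.7 for Tgfb1. Among the BMPs, Bmp3 had 1485, Bmp4 802 and Bmp6 344 normalised counts per kb. Tgfbr2, the TGF-beta type II receptor, and Bmpr1a, a BMP type I receptor, had 2078 and 2370.2 per kb.

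DMSO lowered a set of secreted BMP and activin regulators and raised Bmp2 and Gdf11. In the authors' deposited table, 16 of 55 pathway genes passed an adjusted p of 0.05, 2 higher and 14 lower than in ethanol. Over all tested genes the background was 16% called, with 8.07% higher and 7.9% lower. The median log2 fold change of the pathway genes was -0.14, beside 0.03 over all tested genes. I-CBP112 likewise had 16 of 55 past the threshold in the authors' deposited table, 1 higher and 15 lower than in ethanol, with a background of 9.9% called, 4.65% higher and 5.25% lower. There the median was -0.19, beside 0.01 over all tested genes. The DMSO and I-CBP112 tables share the ethanol libraries, so their values are set side by side below and not counted as separate evidence. These calls, and those between treatments below, use a normal p. A t distribution with 4 degrees of freedom leaves 0 pathway genes called in each comparison. The share of all tested genes that it leaves called is not given here, so this 0 has no background beside it.

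**Figure D1:**
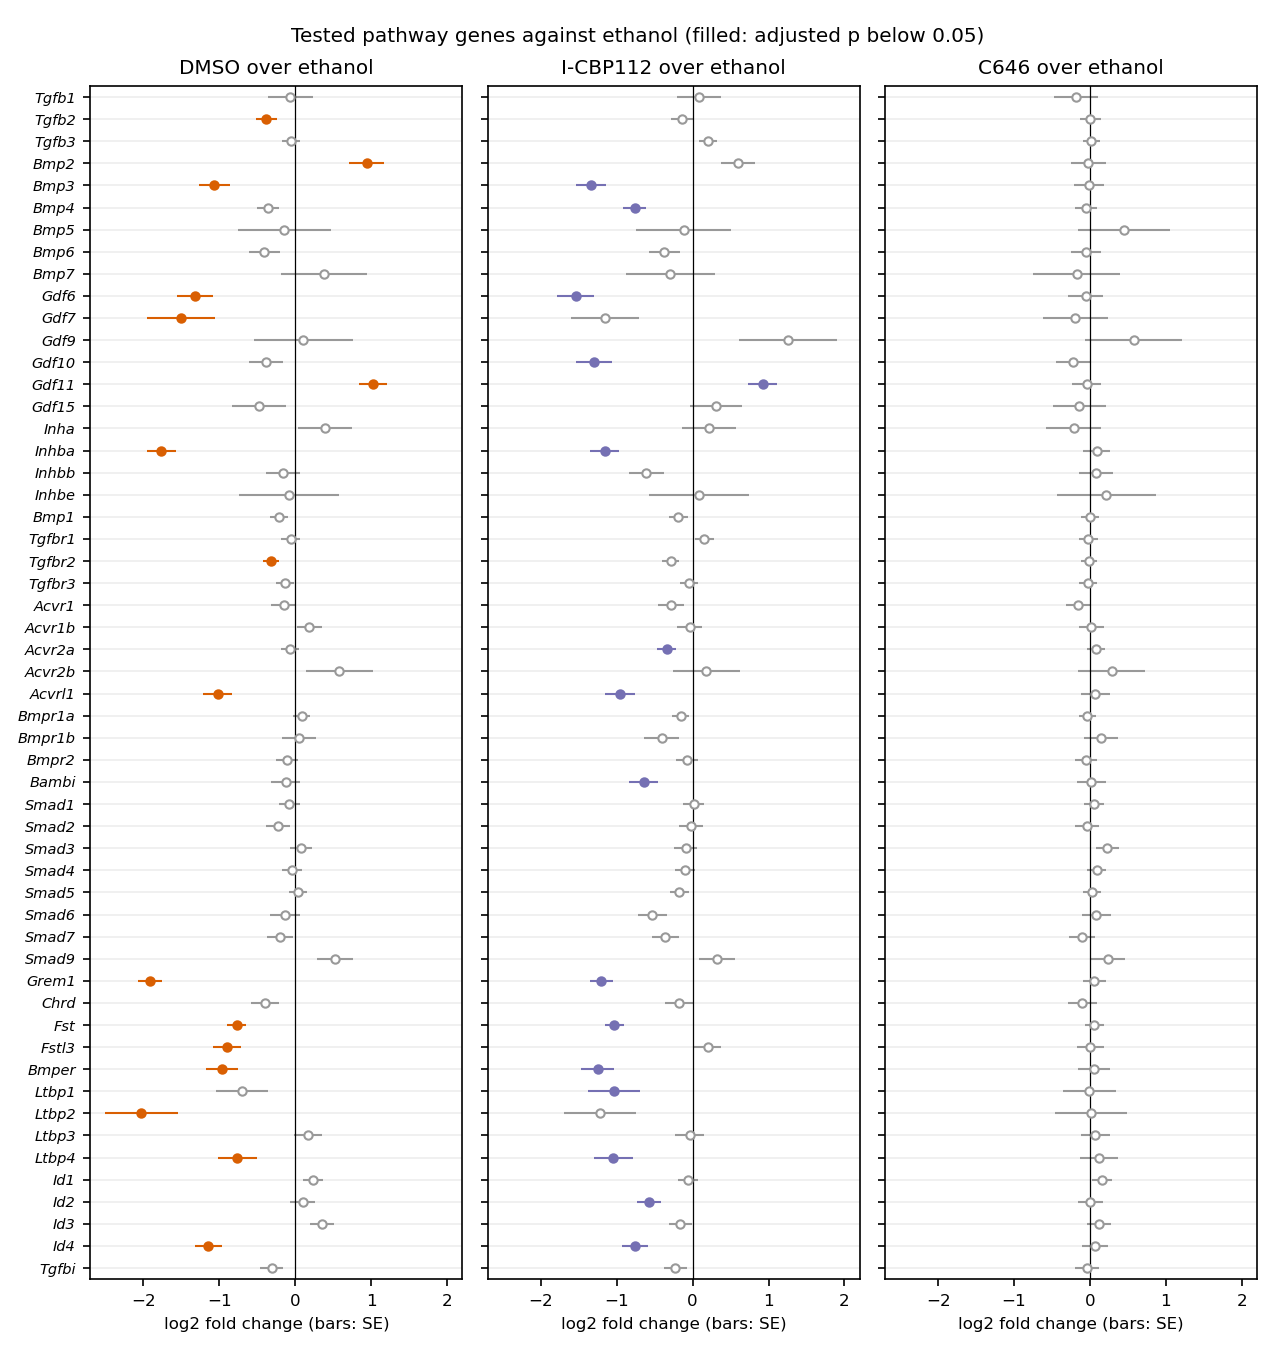
Log2 fold change over ethanol of 54 tested pathway genes in the authors' deposited tables, in panels for DMSO, I-CBP112 and C646, with bars for the standard error and filled points for an adjusted p below 0.05. Most filled DMSO and I-CBP112 points lie left of 0, Gdf11 is filled on the right in both, and no point is filled for C646.

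C646 gave no call among these genes. Small p-values were rare in this comparison: 0.748% of the 14830 genes tested in the DMSO table had an unadjusted p below 0.05. That is fewer than the share of 0.05 that would be seen if no gene differed. Against ethanol, 0 of the 64 pathway genes with counts passed the threshold in the authors' deposited table, and 0 had an unadjusted p below 0.05. The background was 0.00584% called, with 0.00292% higher and 0.00292% lower, which is 2 genes of 34250. The smallest unadjusted p among the pathway genes in the authors' deposited table was 0.122, for Smad3, whose log2 fold change was 0.23 ± 0.15 (SE). Among the 51 pathway genes with a mean of at least 50, the authors' deposited values ran from a log2 fold change of -0.22 for Gdf10 to 0.29 for Acvr2b, and for 49 of them the 95% interval lay within a 2-fold change either way. The most abundant ligands, receptors and antagonist were close to ethanol in the same table: the authors' deposited table gives C646 log2 fold changes of 0.02 for Tgfb3, -0.01 for Bmp3, -0.05 for Bmp4, 0.09 for Inhba, -0.01 for Tgfbr2, -0.04 for Bmpr1a and 0.06 for Fst. The authors' deposited C646 values ran from -0.10 to 0.23 for the Smads and from -0.01 to 0.12 for the latent binding proteins. For the Id genes and Tgfbi they ran from -0.04 to 0.16.

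Ligands of the TGF-beta subfamily moved little. Tgfb3, the abundant isoform, had rebuilt means of 10316 ± 591 normalised counts in DMSO, 12406 ± 710.3 in I-CBP112, 10907 ± 625 in C646, against 10759 ± 617 in ethanol, where ± is the standard error implied by the deposited ones. The authors' deposited table puts it at -0.06 ± 0.12 in DMSO and 0.21 ± 0.12 in I-CBP112 (log2 fold change over ethanol, SE). Tgfb2 fell in DMSO by 0.38 ± 0.14 on the log2 scale in the authors' deposited table (adjusted p = 0.0459). Its I-CBP112 value there was -0.14 ± 0.14 and did not pass. Tgfb1 was at -0.06 ± 0.29 for DMSO and 0.09 ± 0.29 for I-CBP112 in the authors' deposited table.

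The BMP and GDF ligands moved in both directions: 2 of 12 tested rose and 3 fell in DMSO, and 1 rose and 4 fell in I-CBP112. Over all tested genes, 8.07% rose and 7.9% fell in DMSO, and 4.65% rose and 5.25% fell in I-CBP112. Bmp3, a BMP family member known for opposing other BMPs, had rebuilt means of 2712 ± 266 normalised counts in DMSO, 2247 ± 221 in I-CBP112, 5631 ± 549.9 in C646, against 5680.2 ± 555 in ethanol. DMSO and I-CBP112 were both low: the authors' deposited table gives a 2.09-fold lower level in DMSO (log2 -1.07 ± 0.20, adjusted p = 3.06e-06) and a 2.53-fold lower one in I-CBP112 (log2 -1.34 ± 0.20, adjusted p = 2.38e-09). Gdf6, a BMP-type ligand of joint development, fell by 1.32 ± 0.24 in DMSO (adjusted p = 1.28e-06) and by 1.54 ± 0.24 in I-CBP112 (adjusted p = 2.05e-08) on the log2 scale of the authors' deposited table. Gdf11, a relative of myostatin that signals through activin receptors, rose: its rebuilt means were 678 ± 60.4 in DMSO, 633 ± 56.6 in I-CBP112, 325 ± 30.3 in C646, against 334 ± 31.2 in ethanol. By the authors' deposited table that is 2.03-fold higher in DMSO (log2 1.02 ± 0.19, adjusted p = 1.41e-06) and 1.90-fold higher in I-CBP112 (log2 0.92 ± 0.19, adjusted p = 3.26e-05).

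The other ligand calls were made in 1 of these tables each. Bmp2, a ligand of heart and bone development, had rebuilt means of 378 ± 41.1 normalised counts in DMSO, 298 ± 32.9 in I-CBP112, 194 ± 22.2 in C646, against 197 ± 22.5 in ethanol. It rose 1.92-fold in DMSO in the authors' deposited table (adjusted p = 6.01e-04), and its I-CBP112 log2 fold change of 0.60 ± 0.23 did not pass (adjusted p = 0.0802). Gdf7, at a mean of 58.3, fell by 1.51 ± 0.45 on the log2 scale in DMSO in the authors' deposited table (adjusted p = 0.00872), beside -1.15 ± 0.44 in I-CBP112 (adjusted p = 0.0812). Bmp4 and Gdf10 were called in I-CBP112. Bmp4 had rebuilt means of 1548 ± 114 in DMSO, 1170.1 ± 87 in I-CBP112, 1917 ± 140.4 in C646, against 1989 ± 146 in ethanol, and in the authors' deposited table it fell by 0.77 ± 0.15 in I-CBP112 (log2, adjusted p = 1.72e-05), beside -0.36 ± 0.15 in DMSO (adjusted p = 0.0852). Gdf10, the closest relative of Bmp3, had rebuilt means of 275 ± 30.7 in DMSO, 146 ± 17.3 in I-CBP112, 309 ± 34.2 in C646, against 359 ± 39.4 in ethanol. It fell by 1.30 ± 0.23 in I-CBP112 (log2, adjusted p = 1.67e-06) in the authors' deposited table, beside -0.39 ± 0.23 in DMSO (adjusted p = 0.277). Bmp6 was not called, at -0.41 ± 0.20 in DMSO and -0.37 ± 0.20 in I-CBP112 in the authors' deposited table. Its exons overlap those of the more abundant Txndc5 on the other strand.

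Inhba, which encodes the subunit of activin A, was the 1 activin or inhibin gene of 4 tested that was called against ethanol. The background was 16% called in DMSO and 9.9% in I-CBP112. Inhba lies on the plus strand of chromosome 13 at 16011851-16031621 (GRCm38). Its rebuilt means were 207 ± 20.2 normalised counts in DMSO, 316 ± 29.4 in I-CBP112, 750.3 ± 66.1 in C646, against 706 ± 62.3 in ethanol. DMSO was lowest, I-CBP112 was between DMSO and ethanol, and C646 was close to ethanol. In the authors' deposited table Inhba was 3.41-fold lower in DMSO (log2 -1.77 ± 0.19, adjusted p = 2.39e-18) and 2.24-fold lower in I-CBP112 (log2 -1.16 ± 0.19, adjusted p = 3.42e-08). Inhbb, the activin B subunit, was at -0.16 ± 0.22 in DMSO and -0.61 ± 0.23 in I-CBP112 in the authors' deposited table, and Inha, the inhibin alpha subunit, was at 0.39 ± 0.35 and 0.22 ± 0.36. Bmp1, a procollagen protease despite its name, was at -0.22 ± 0.12 in DMSO and -0.19 ± 0.12 in I-CBP112 in the authors' deposited table.

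**Figure D2:**
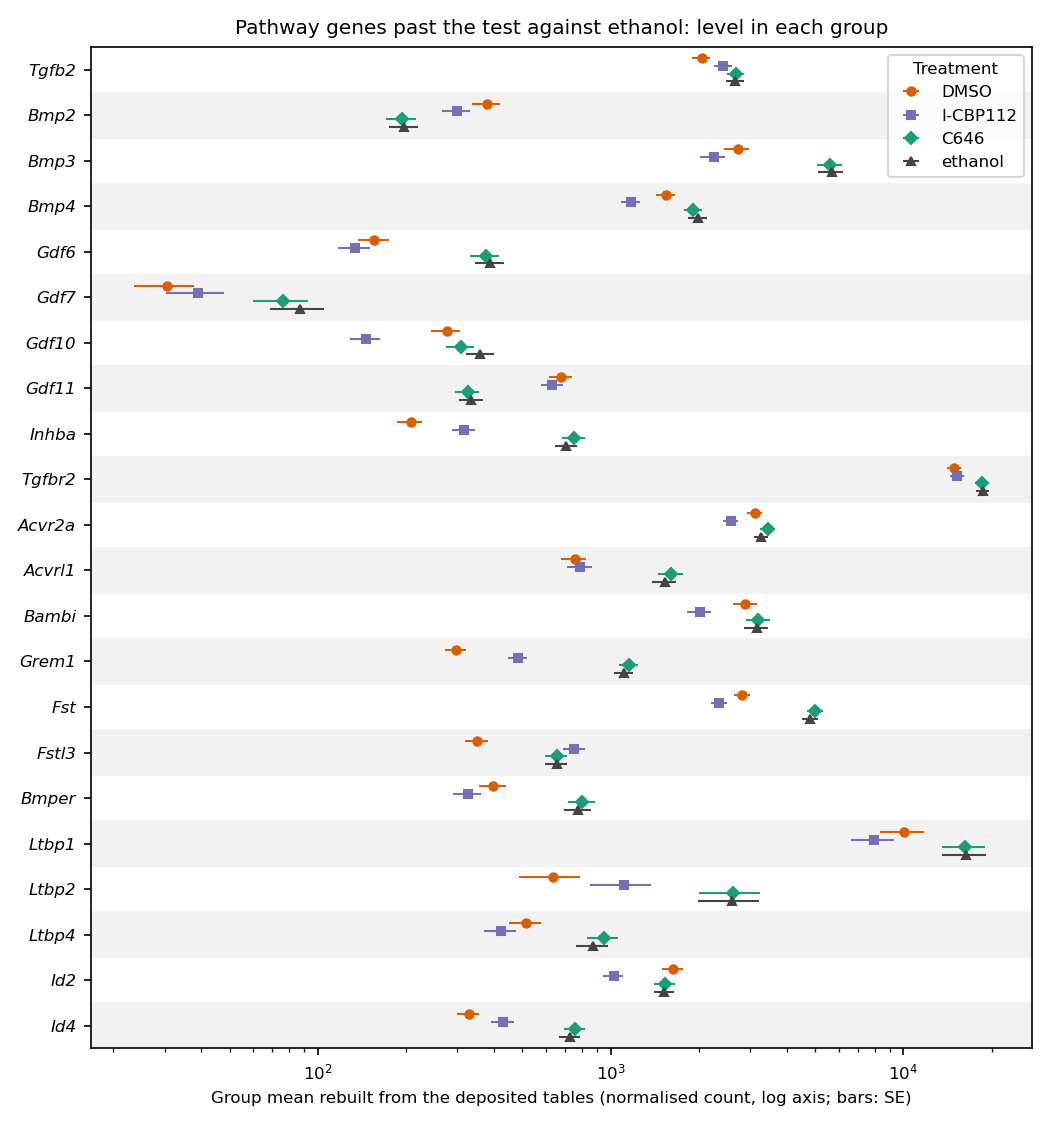
Rebuilt mean normalised counts (log axis) of the 22 pathway genes past the test in the DMSO or I-CBP112 table, in DMSO, I-CBP112, C646 and ethanol, with bars for the implied standard error. Grem1 and Inhba are lowest in DMSO and intermediate in I-CBP112, and the C646 points lie beside those of ethanol.

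Of 12 receptors tested, 2 fell in DMSO and 3 in I-CBP112, and Acvrl1 alone was called in both. The shares lower over all tested genes were 7.9% and 5.25%. Acvrl1 is ALK1, a type I receptor for BMP9 and BMP10 known from endothelium. Its rebuilt means were 753 ± 73.3 in DMSO, 788 ± 76.6 in I-CBP112, 1609 ± 154 in C646, against 1531 ± 146 in ethanol. It fell by 1.02 ± 0.20 in DMSO (adjusted p = 5.76e-06) and by 0.96 ± 0.20 in I-CBP112 (adjusted p = 4.37e-05) on the log2 scale of the authors' deposited table. The 6 endothelial markers, all present, summed to 589 normalised counts in DMSO, 673 in I-CBP112, 1016 in C646, against 1016 in ethanol, and their part in the Acvrl1 result was not tested. Nearly all of that sum is Kdr, with rebuilt means of 367 in DMSO, 393 in I-CBP112, 517 in C646, against 525 in ethanol, and Tek, with 191 in DMSO, 249 in I-CBP112, 462 in C646, against 451 in ethanol. The other 4 markers had means of at most 14.2 over all groups. Of these, Pecam1, at 16.3 in DMSO, against 14.9 in ethanol, and Vwf, at 11.7 in DMSO, against 8.72 in ethanol, were not lower in DMSO. Cdh5, at 1.47 in DMSO, against 13.1 in ethanol, and Emcn, at 2.13 in DMSO, against 2.95 in ethanol, were lower. The other receptor calls were small. Tgfbr2 fell by 0.32 ± 0.11 in DMSO in the authors' deposited table (log2, adjusted p = 0.0238), beside -0.29 ± 0.11 in I-CBP112 (adjusted p = 0.0689). Acvr2a, an activin type II receptor, fell by 0.34 ± 0.12 in I-CBP112 (log2, adjusted p = 0.0458) in the authors' deposited table, beside -0.07 ± 0.12 in DMSO. Bambi, a pseudoreceptor without a kinase domain that damps signalling and is itself a BMP and TGF-beta target, fell by 0.65 ± 0.19 in I-CBP112 (log2, adjusted p = 0.00947) in the authors' deposited table, beside -0.13 ± 0.19 in DMSO. Of the uncalled receptors, the authors' deposited table puts Bmpr1a at 0.08 ± 0.11 in DMSO and -0.16 ± 0.11 in I-CBP112, and Tgfbr3, the co-receptor betaglycan, at -0.13 ± 0.12 and -0.05 ± 0.12.

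None of the 8 Smads passed the test in the DMSO or I-CBP112 table, while 1 in DMSO and 2 in I-CBP112 had an unadjusted p below 0.05. Over all tested genes, 16% were called in DMSO and 9.9% in I-CBP112, so 0 calls among 8 genes is close to the background. Smad5 was at 0.04 ± 0.12 in DMSO and -0.17 ± 0.12 in I-CBP112, and Smad4, the shared partner, at -0.04 ± 0.13 and -0.10 ± 0.13 in the authors' deposited table. The inhibitory Smad6, a feedback target of BMP signalling, was at -0.14 ± 0.19 in DMSO and -0.53 ± 0.19 in I-CBP112 (adjusted p = 0.0612) in the authors' deposited table.

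Secreted antagonists held the lowest adjusted p of any role. Of 6 tested, 4 fell in DMSO and 3 in I-CBP112, none rose, and the medians were -0.84 and -0.76 on the log2 scale. Over all tested genes, 7.9% were lower in DMSO and 5.25% in I-CBP112. Grem1, Gremlin-1, which binds BMP2 and BMP4, lies on the minus strand of chromosome 2 at 113746164-113758646 (GRCm38). Its rebuilt means were 296 ± 24.1 normalised counts in DMSO, 483 ± 37.3 in I-CBP112, 1153 ± 84.6 in C646, against 1110.1 ± 81.6 in ethanol. By the authors' deposited table Grem1 was 3.75-fold lower in DMSO (log2 -1.91 ± 0.16, adjusted p = 1.11e-30) and 2.30-fold lower in I-CBP112 (log2 -1.20 ± 0.15, adjusted p = 1.04e-12). Fst, follistatin, which binds activin, had rebuilt means of 2813 ± 171 in DMSO, 2345 ± 143 in I-CBP112, 4999 ± 299.8 in C646, against 4802 ± 288 in ethanol. DMSO and I-CBP112 were both below ethanol, and the difference between them did not pass (adjusted p = 0.230). By the authors' deposited table, Fst fell by 0.77 ± 0.12 in DMSO (log2, adjusted p = 1.92e-08) and by 1.03 ± 0.12 in I-CBP112 (log2, adjusted p = 1.21e-14). Bmper, a BMP-binding modulator related to Chordin, fell by 0.96 ± 0.22 in DMSO (adjusted p = 1.56e-04) and by 1.25 ± 0.22 in I-CBP112 (adjusted p = 4.8e-07) on the log2 scale of the authors' deposited table.

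Fstl3, a follistatin relative that binds activin and myostatin, was low in DMSO alone: 351 ± 31.6 normalised counts in DMSO, 751 ± 64.5 in I-CBP112, 655 ± 56.7 in C646, against 654 ± 56.6 in ethanol. It fell by 0.90 ± 0.18 in DMSO in the authors' deposited table (log2, adjusted p = 1.69e-05), and was at 0.20 ± 0.18 in I-CBP112 (adjusted p = 0.655). Chrd, Chordin, was not called, at -0.40 ± 0.19 in DMSO and -0.18 ± 0.19 in I-CBP112 in the authors' deposited table. Whether the counting used strand is not stated in the sources at hand, and 8 of the 22 genes called in the DMSO or I-CBP112 table share an exon stretch with an annotated gene on the other strand, so reads inside the shared stretch cannot be told apart. They are Tgfb2, Bmp4, Acvr2a, Acvrl1, Fst, Fstl3, Ltbp2 and Id4. The stretch is 80 bases in Tgfb2, 87 in Acvrl1 and 1157 in Fstl3, whose partner Prss57 has a mean of 7.17 normalised counts. The most abundant partner is Orc4, with a mean of 1294, which shares 446 bases with Acvr2a.

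Of the 4 latent TGF-beta binding proteins, 2 fell in DMSO and 2 in I-CBP112, beside 7.9% and 5.25% of all tested genes. TGF-beta held in the matrix was not measured. Ltbp2, a matrix protein of elastic fibres, had rebuilt means of 636 ± 149.7 normalised counts in DMSO, 1112 ± 261 in I-CBP112, 2623 ± 614 in C646, against 2595 ± 608 in ethanol. The authors' deposited table gives it the largest fold of all pathway genes called in DMSO, 4.08-fold lower (log2 -2.03 ± 0.48, adjusted p = 3.94e-04), beside -1.22 ± 0.48 in I-CBP112 (adjusted p = 0.0887). Ltbp4 fell by 0.76 ± 0.25 in DMSO (adjusted p = 0.0204) and by 1.04 ± 0.25 in I-CBP112 (adjusted p = 9.36e-04) on the log2 scale of the authors' deposited table. Ltbp1, abundant at a mean of 12643, fell by 1.04 ± 0.34 in I-CBP112 in the authors' deposited table (log2, adjusted p = 0.0308), beside -0.71 ± 0.34 in DMSO (adjusted p = 0.167). Ltbp3 was at 0.17 ± 0.19 in DMSO and -0.04 ± 0.19 in I-CBP112 in the authors' deposited table. The standard errors of Ltbp1 and Ltbp2 are wide for their level: among the 5878 genes with a mean of at least 1000, 98.2% have a smaller one than Ltbp1 and 99.5% than Ltbp2 in the authors' deposited table for DMSO, and the median is 0.139.

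The Id genes, which encode inhibitors of basic helix-loop-helix factors and are direct BMP targets, differed in their calls: against ethanol Id4 passed in DMSO and I-CBP112, Id2 in I-CBP112, and Id1 and Id3 in neither. Id4 fell in both: its rebuilt means were 328 ± 29.1 normalised counts in DMSO, 429 ± 37.2 in I-CBP112, 756 ± 63.4 in C646, against 725 ± 60.9 in ethanol, and in log2 terms it fell by 1.15 ± 0.18 in DMSO (adjusted p = 4.73e-09) and by 0.76 ± 0.17 in I-CBP112 (adjusted p = 4.05e-04) by the authors' deposited table. Id2 was low in I-CBP112 alone, with 1632 ± 128 in DMSO, 1024 ± 81.7 in I-CBP112, 1532 ± 121 in C646, against 1527 ± 120.3 in ethanol. It fell by 0.58 ± 0.16 in I-CBP112 in the authors' deposited table (log2, adjusted p = 0.00621), beside 0.10 ± 0.16 in DMSO. Id3 was the most abundant, with 6367 ± 485 in DMSO, 4469.6 ± 342 in I-CBP112, 5433 ± 415 in C646, against 4999.5 ± 382 in ethanol, and was called against ethanol in neither table: the authors' deposited values are 0.35 ± 0.16 for DMSO and -0.16 ± 0.16 for I-CBP112. Id1 was at 0.23 ± 0.13 in DMSO and -0.07 ± 0.13 in I-CBP112 in the authors' deposited table. Tgfbi, a matrix protein named for its induction by TGF-beta, was at -0.31 ± 0.15 in DMSO and -0.23 ± 0.15 in I-CBP112 in the authors' deposited table.

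Promoter sequence is shown for Grem1, which has the lowest adjusted p of the pathway genes, and for 3 Id genes, which were called in at least 1 comparison. Binding of Smads to these windows was not measured, and known Smad sites may lie outside them. Each is the 250 bases before the RefSeq start on GRCm38.p6, read 5′ to 3′ on the strand of the gene, with GGCGCC, a BMP Smad element, in capitals where it occurs.
Grem1: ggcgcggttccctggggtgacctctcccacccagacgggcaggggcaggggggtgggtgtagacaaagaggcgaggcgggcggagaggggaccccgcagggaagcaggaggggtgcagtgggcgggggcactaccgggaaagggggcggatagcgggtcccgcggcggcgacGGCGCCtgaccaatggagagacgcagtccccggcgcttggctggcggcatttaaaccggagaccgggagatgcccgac
Id2: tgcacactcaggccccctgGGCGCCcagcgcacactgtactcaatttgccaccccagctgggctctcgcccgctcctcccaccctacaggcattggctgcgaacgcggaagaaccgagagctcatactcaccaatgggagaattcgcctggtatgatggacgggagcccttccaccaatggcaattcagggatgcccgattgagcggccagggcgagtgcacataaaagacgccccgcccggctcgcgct
Id3: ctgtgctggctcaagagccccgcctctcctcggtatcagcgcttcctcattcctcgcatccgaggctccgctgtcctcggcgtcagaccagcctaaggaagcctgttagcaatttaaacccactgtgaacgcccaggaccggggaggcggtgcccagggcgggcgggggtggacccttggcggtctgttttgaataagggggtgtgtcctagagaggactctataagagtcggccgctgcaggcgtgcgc
Id4: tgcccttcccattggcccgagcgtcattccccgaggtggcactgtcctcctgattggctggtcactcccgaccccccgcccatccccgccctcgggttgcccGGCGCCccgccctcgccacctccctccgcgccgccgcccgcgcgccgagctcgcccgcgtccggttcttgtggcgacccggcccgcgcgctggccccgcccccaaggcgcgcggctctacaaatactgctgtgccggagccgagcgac
The windows are chr2:113758649-113758898 (minus strand) for Grem1, chr12:25096093-25096342 (minus) for Id2, chr4:136143572-136143821 (plus) for Id3 and chr13:48260866-48261115 (plus) for Id4. GGCGCC starts 78 bases before the start of Grem1, 231 before that of Id2 and 148 before that of Id4, and its letters are not in the Id3 window. The RefSeq table holds 58 promoters of 47 pathway genes, and GGCGCC is in 13 of them (22.4%, of 12 genes) on either strand, beside 9.59% of all 32851 promoters. By gene, it occurs in 3 of 11 called and 8 of 28 uncalled pathway genes for DMSO, and in 4 of 11 and 7 of 28 for I-CBP112. CAGACA, a Smad3 and Smad4 box, is in 8 of the 58 promoters (13.8%), beside 17.1% of all promoters. By gene, it occurs in 2 of 11 called and 4 of 28 uncalled for DMSO, and in 1 of 11 and 5 of 28 for I-CBP112. GTCTAGAC, the palindromic Smad element, which does not overlap the other motifs, is in 0 of the 58, beside 0.167% of all promoters.

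I-CBP112 and DMSO differed at 6 of the 55 tested genes, 3 higher and 3 lower in I-CBP112, with a background of 6.97% called, 4.31% higher and 2.66% lower. Each difference was computed here from a pair of deposited log2 fold changes, with its standard error derived from theirs and p-values adjusted over 14830 genes. Fstl3 was 2.14-fold higher in I-CBP112 than in DMSO (log2 1.10 ± 0.18, adjusted p = 1.59e-07). Grem1 was higher by 0.71 ± 0.16 (adjusted p = 5.99e-04) and Inhba by 0.61 ± 0.19 (adjusted p = 0.0313) on the log2 scale, so these fell less against ethanol in I-CBP112 than in DMSO. Gdf10 was lower in I-CBP112, at -0.91 ± 0.23 (adjusted p = 0.00334), as were Id2, at -0.67 ± 0.16 (adjusted p = 0.00125), and Id3, at -0.51 ± 0.16 (adjusted p = 0.0206). Bambi, at -0.52 ± 0.19, came next and did not pass (adjusted p = 0.0738), and 19 of the 55 genes had an unadjusted p below 0.05. With the upper bound of the standard error, Fstl3 was the 1 gene left. For the genes that did not pass, the 95% intervals in the plot of I-CBP112 minus DMSO give the differences that these data allow: for Ltbp2, at 0.81, the interval ran from -0.13 to 1.75, and for Fst, at -0.26, from -0.51 to -0.02.

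**Figure D3:**
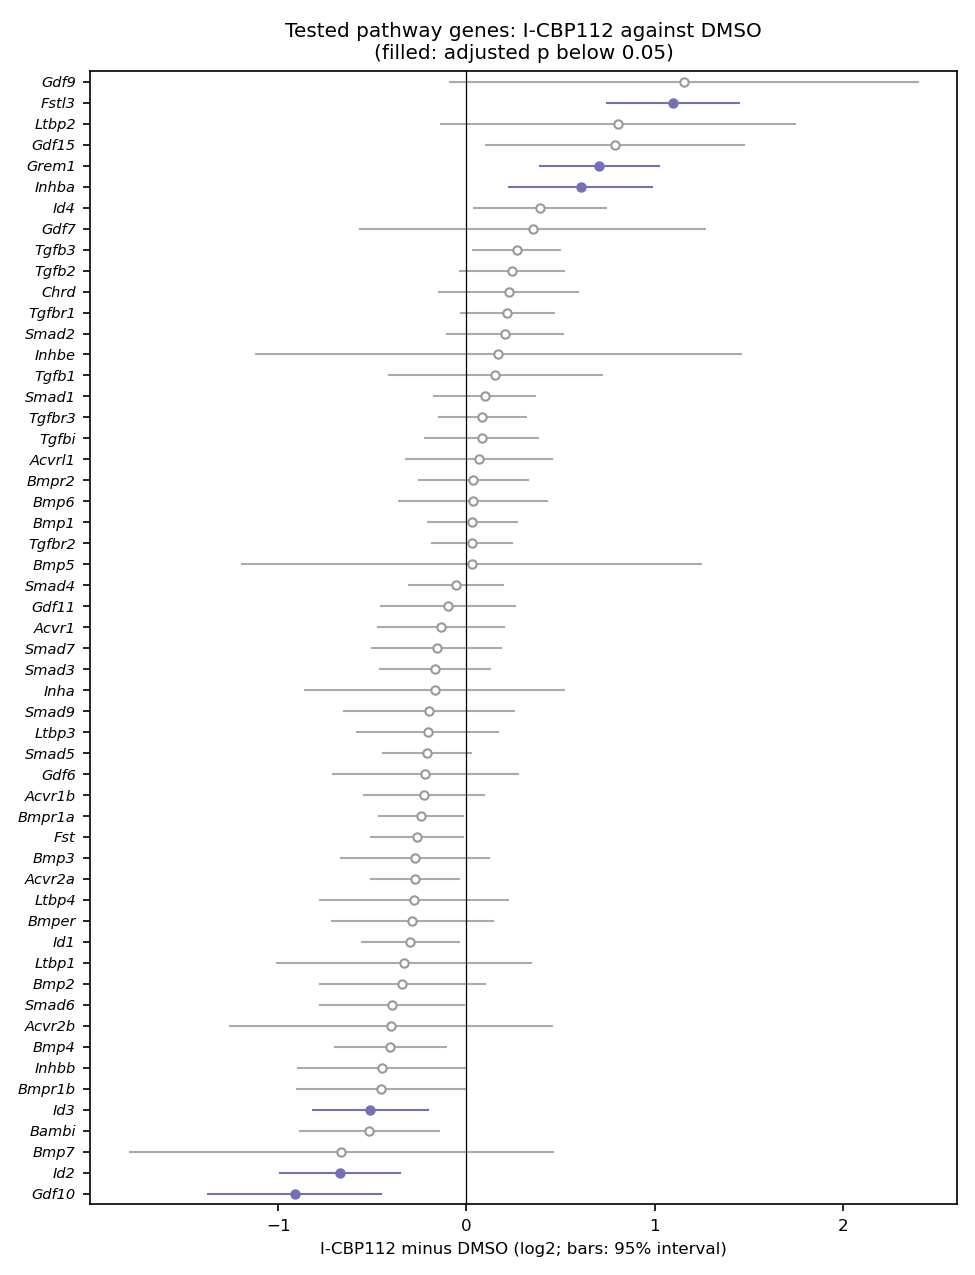
I-CBP112 minus DMSO on the log2 scale for 54 tested pathway genes, ordered by the difference, with 95% intervals and filled points for an adjusted p below 0.05. Fstl3, Grem1 and Inhba are filled on the right, and Id3, Id2 and Gdf10 on the left.

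C646 and DMSO differed at 16 pathway genes, 14 higher and 2 lower in C646, with a background of 15.8% called, 7.98% higher and 7.86% lower. These differences were computed in the same way. The 14 were Tgfb2 (0.39), Bmp3 (1.05), Gdf6 (1.27), Gdf7 (1.32), Inhba (1.86), Tgfbr2 (0.31), Acvrl1 (1.10), Grem1 (1.96), Fst (0.83), Fstl3 (0.90), Bmper (1.01), Ltbp2 (2.04), Ltbp4 (0.88) and Id4 (1.21), given as log2 C646 minus DMSO. Grem1 had the lowest adjusted p, 1.47e-32, with a standard error of 0.16. Gdf11, at -1.06 ± 0.19, and Bmp2, at -0.96 ± 0.23, were lower in C646 than in DMSO. The same 16 genes were called in DMSO against ethanol. Both comparisons use the DMSO libraries, so they are not counted as separate evidence.

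I-CBP112 and C646 were given at the same dose for the same time, and differed at 18 of the 55 genes, 1 higher and 17 lower in I-CBP112. The background was 9.8% called, with 4.69% higher and 5.11% lower. Gdf11 was the 1 higher, at 0.96 ± 0.19 (log2, I-CBP112 minus C646). The ligands Bmp3, Bmp4, Gdf6 and Gdf10 were lower, at -1.33, -0.71, -1.48 and -1.08. So were the activin subunits Inhba, at -1.25 ± 0.18, and Inhbb, at -0.69 ± 0.23 (adjusted p = 0.0292), and the receptors Acvr2a (-0.42), Acvrl1 (-1.03) and Bambi (-0.67). Smad6 was the 1 Smad called in any of these comparisons, at -0.62 ± 0.19 (adjusted p = 0.0206). Of the antagonists, Fst was at -1.09 ± 0.12 (adjusted p = 2.56e-16), Grem1 at -1.26 ± 0.15 (adjusted p = 6.3e-14) and Bmper at -1.30 ± 0.22. Ltbp1 (-1.03), Ltbp4 (-1.16), Id2 (-0.58) and Id4 (-0.82) complete the 17. Of the 18 genes, all but Inhbb and Smad6 were also called in I-CBP112 against ethanol. Both comparisons use the I-CBP112 libraries, so they are not counted as separate evidence.

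DMSO against ethanol and I-CBP112 against C646 have no library in common. Acvrl1, Id4, Fst, Gdf11, Bmp3, Bmper, Ltbp4, Inhba, Gdf6 and Grem1 were called in the same direction in both, which is 10 genes, 62.5% of those called in the first and 55.6% of those in the second, and 0 were called in opposite directions. Over all tested genes, 839 were called in the same direction, 35.4% and 57.7% of the lists of 2368 and 1454, and 18 in opposite directions.

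Further pathway genes came from a list of 52 outside the symbols above. Of 39 tested, 1 rose and 5 fell in DMSO, and 1 rose and 7 fell in I-CBP112, by the authors' deposited tables, beside the backgrounds of 16% called in DMSO and 9.9% in I-CBP112 over all tested genes. For C646, 0 of 50 with counts were called there, with 0 at an unadjusted p below 0.05. Lrrc32, which encodes the latent TGF-beta docking protein GARP, fell by 1.05 ± 0.20 in DMSO (adjusted p = 3.2e-06) and by 1.02 ± 0.20 in I-CBP112 (adjusted p = 9.84e-06) on the log2 scale of the authors' deposited table. Fbn2, a fibrillin to which latent complexes bind, fell by 1.17 ± 0.18 in DMSO (log2, adjusted p = 2.41e-09) in the authors' deposited table, beside -0.67 ± 0.18 in I-CBP112 (adjusted p = 0.00312). Htra1, a secreted protease, was the 1 that rose, 1.91-fold in DMSO and 1.52-fold in I-CBP112 in the authors' deposited table.

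Target genes of both arms of the pathway were taken from lists. Of 6 tested BMP targets, 0 were called in DMSO, where 1 had an unadjusted p below 0.05. Over all tested genes 16% were called in DMSO, so 0 of 6 is close to the background. In I-CBP112, 3 of the 6 fell in the authors' deposited table, where 5.25% of all tested genes were lower. The list's medians were -0.07 in DMSO and -0.62 in I-CBP112. The 3 are the transcription factors Msx1 (log2 -0.65 ± 0.16, adjusted p = 0.00122), Atoh8 (-0.82 ± 0.24, adjusted p = 0.00854) and Tbx20 (-0.59 ± 0.17, adjusted p = 0.00574), all in the authors' deposited I-CBP112 table. By the difference computed here, I-CBP112 was below DMSO for Tbx20 by -0.97 ± 0.16 and for Msx1 by -0.49 ± 0.16 (adjusted p = 0.0396), and Atoh8, at -0.65 ± 0.24, did not pass (adjusted p = 0.0763). The Msx1 difference no longer passes when scaled to equal totals (adjusted p = 0.0696) or centred on the median gene (adjusted p = 0.0606). Of 17 tested TGF-beta targets, 8 fell in DMSO and 4 in I-CBP112 in the authors' deposited tables, and none rose, beside 7.9% lower in DMSO and 5.25% lower in I-CBP112 over all tested genes. In DMSO they were Acta2, Tagln, Col3a1, Fn1, Lox, Timp1, Nox4 and Angptl4, and in I-CBP112 Col3a1, Lox, Timp1 and Nox4. Fn1, fibronectin, was 2.32-fold lower and Tagln, an actin-binding protein of smooth muscle, 2.12-fold lower in DMSO in the authors' deposited table, and Angptl4 was at -1.23 ± 0.45 there. I-CBP112 was above DMSO for Acta2 by 0.40, for Tagln by 1.21 and for Fn1 by 0.85 on the log2 scale, past the threshold in each case. Acta2 and Tagln are also smooth muscle markers, and Col3a1 is also one of the fibroblast markers. The 6 smooth muscle markers, all present, summed to 86447 normalised counts in DMSO, 130191 in I-CBP112, 125167 in C646, against 127003 in ethanol, and their part in these results was not tested.

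**Figure D4:**
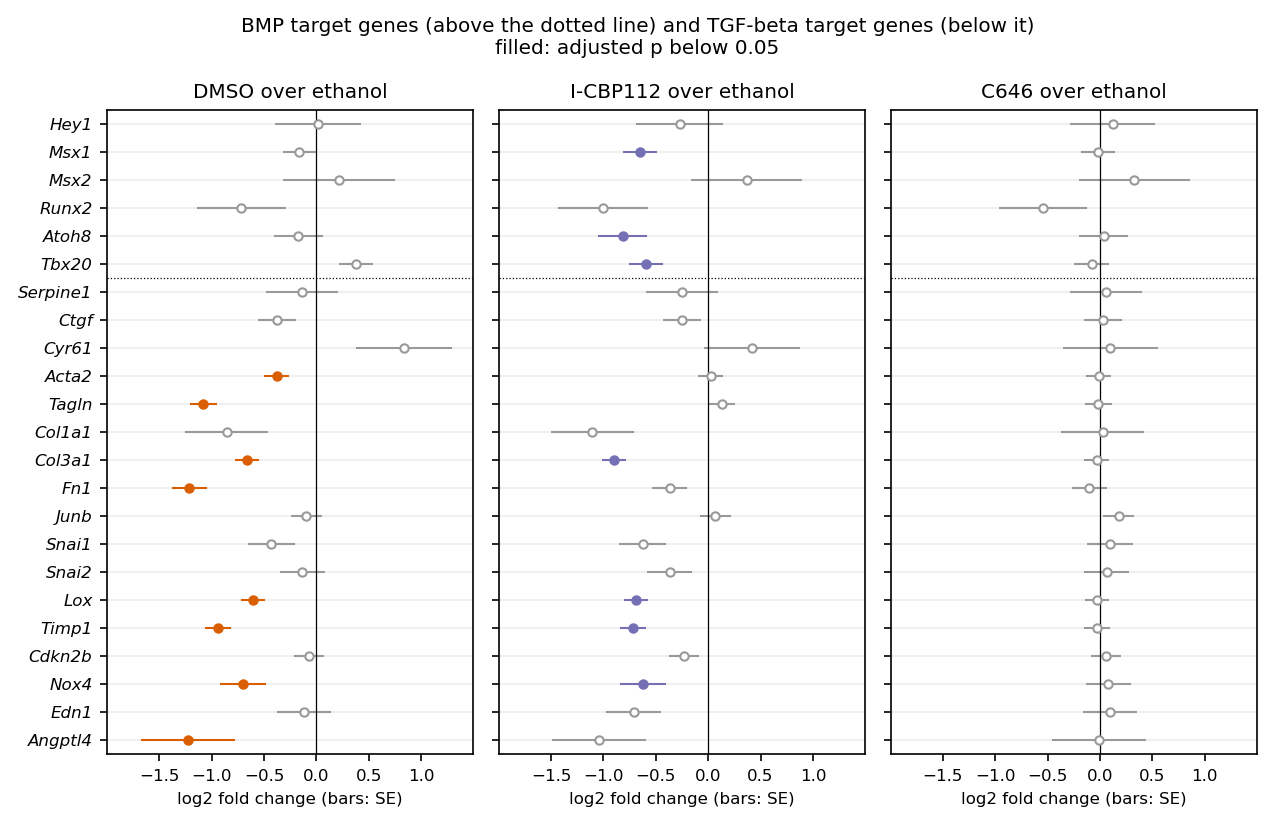
Log2 fold change over ethanol of the tested BMP targets (above the dotted line) and TGF-beta targets (below it) for DMSO, I-CBP112 and C646, with bars for the standard error and filled points for an adjusted p below 0.05 in the authors' deposited tables. The 3 filled BMP targets are in the I-CBP112 panel, Tagln and Fn1 are filled in the DMSO panel, and no point is filled for C646.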

How the data were processed

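RNA-seq was made from 8 libraries in 4 groups of 2. Per the submitters' processing notes, reads were quantified with kallisto 0.43.1 on GRCm38.p5 and compared with DESeq2 (version not stated there). The deposited tables hold, per the file headers, the mean normalised count over all libraries (a signal), the log2 fold change with its standard error, the Wald score, and the p-value and adjusted p-value by the authors. They also hold the length of 1 transcript per gene. Every one of the 50600 genes had the same mean normalised count in each table, so the 3 comparisons were read as 1 fit.

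From these values the group means were rebuilt here, and differences between treatments were tested with a normal p and Benjamini-Hochberg adjustment over 14830 genes (Python 3.11.15, numpy 2.4.6, pandas 2.3.3, scipy 1.17.1). The standard error of a difference came from 1 dispersion per gene, a formula that gave back the deposited standard errors within 1% for 98.9% to 99.0% of tested genes. The threshold was an adjusted p of 0.05. No per-library depth is known, so precision is that of the deposited standard errors (log2 scale, median 0.185 over tested genes). Nothing in the sources says that the libraries of a group came from separate cultures, so p-values measure the spread between these libraries, which may be technical. The same replicate numbers recur in every group, and the sources do not say whether same-numbered libraries were made together.

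The members and gene lists were chosen with earlier results of these data known. In each comparison every member past the threshold was named, and of the others those with the highest mean normalised count in each role; Smad6, Htra1 and genes beyond that were chosen after their values were seen. Gene identifiers of all 66 members were found in GENCODE M21, which gave coordinates and overlaps. Promoter sequences are from RefSeq. Alternatives were a stricter threshold, a 2-fold minimum, adjustment over all genes with counts, 2 other scalings, a t distribution and an upper-bound standard error. The values of 1 tested member are not reported here, and the plots leave it out.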

Additional observations from a re-analysis of the deposited data

How the results depend on the processing

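Directions can change only under the other scalings, and none of the 72 calls of pathway genes or the 36 calls of further pathway and target genes reversed there. With a minimum of 2-fold, 9 pathway genes were left for DMSO against ethanol and 9 for I-CBP112 against ethanol, in place of 16 each. When p came from a t distribution with 4 degrees of freedom, 0 pathway genes were called in DMSO against ethanol or I-CBP112 against ethanol. The same held for I-CBP112 against DMSO, C646 against DMSO and I-CBP112 against C646. Shares over all tested genes under the 2-fold minimum and the t distribution are not given here. With the upper bound of the standard error, 1 gene, Fstl3, was left for I-CBP112 against DMSO, where the usual error gave 6. The other counts stayed within 1.5 times: adjustment over all genes with counts gave 14 for DMSO, 14 for I-CBP112 and 5 for I-CBP112 against DMSO, with Tgfb2, Tgfbr2, Acvr2a, Ltbp1 and, against DMSO, Inhba among those lost. An adjusted p of 0.01 took 13 of the 72 single-gene calls, and scaling to equal totals took 1, that of Acvr2a in I-CBP112. Of the 36 further calls, a p of 0.01 took 12, adjustment over all genes with counts 6, equal totals 2 (Nox4 in I-CBP112 and Msx1 against DMSO) and centring 1 (Msx1). No paired analysis was possible because the tables hold no values of single libraries, and for the same reason no library could be left out in turn. With 2 libraries per group, small differences between treatments are beyond the precision of these tables.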

Other observations

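The C646 table held fewer small p-values than the others across all genes: 0.748% of the 14830 tested genes had an unadjusted p below 0.05, against 26.3% in the DMSO table and 19.3% in the I-CBP112 table, and the median unadjusted p was 0.728. If no gene differed, a share of 0.05 would fall below that threshold, so the C646 p-values were larger than that. The reason was not tested. The lack of C646 calls therefore does not show that C646 and ethanol were alike.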
